A study of Mus musculus with 18 samples.

Results

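The genes described here were 35 genes of glycolysis and of the hypoxia response, chosen by name for their known function, by a rule that uses no measured value, although earlier results of these data were known when the list was drawn up. They comprised 20 genes for glycolytic enzymes and transporters and 15 genes that are targets or regulators of the hypoxia-inducible factors (HIFs). All 35 were found, in 36 rows, among the 21859 rows of the protein-coding gene table, 20157 of which had a mean level above 0. *Aldoa* stood on 2 rows, ENSMUSG00000030695 with a level of 9789 and ENSMUSG00000114515 with a level of 435.4, whose spans lie 38 bases apart on the minus strand of chromosome 7, and the row with the higher level was used.

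Nascent transcription was measured in E14 murine embryonic stem (ES) cells by TT-seq, in which RNA made during a 5 min pulse of 4-thiouridine (4sU) is captured and sequenced. All cells carried osTIR1, the plant F-box protein through which auxin directs a tagged protein to degradation. In SPT16_AID_V5 clone 1 and clone 2, which are isolated homozygous clones, the SPT16 subunit of the histone chaperone FACT bore a mini auxin-inducible degron and a V5 tag at its C terminus. The untagged cells carried osTIR1 alone and served as a control for auxin. Each of these 3 lines was treated for 24 h with 3-indoleacetic acid (3-IAA, labelled as 500 nM), which depletes tagged SPT16, or with 0.1% ethanol (EtOH) as the vehicle, with 3 libraries in each of the 6 groups and 18 libraries in all. Cells grew without feeders in serum with LIF and inhibitors of GSK and MEK.

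The level of a gene is the authors' mean over libraries of its read counts after division by size factors, given in normalized counts. There is 1 such mean per gene and no value per library, so no value has an SD or an n, and neither the conditions nor the clones could be compared. Which of the 18 libraries entered the mean is not stated in the sources used here, so the share of each condition in a level is unknown. The columns holding the authors' own comparison of conditions were not used.

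The markers were mostly those of the labelled cell type, in a mean that may include SPT16-depleted cells. The 7 ES cell genes examined (*Pou5f1*, *Sox2*, *Nanog*, *Zfp42*, *Esrrb*, *Klf4* and *Tfcp2l1*) had levels from 5985 to 72140, whereas fibroblast, blood and liver markers were at or below 25.7, except for *Pdgfra* at 212. Of the primitive endoderm markers, *Gata4* reached 455, at percentile 50.8 of genes with reads, and the other 3 were at or below 98.96.

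Glycolysis converts glucose to pyruvate in a chain of cytosolic enzymes, most of which are encoded by several paralogous genes with tissue-restricted expression, and lactate dehydrogenase then regenerates NAD+ by reducing pyruvate to lactate. HIFs are dimers of an oxygen-labile alpha subunit and a stable beta subunit. In the presence of oxygen, prolyl hydroxylases of the EGLN family mark the alpha subunit for destruction by the VHL ubiquitin ligase, and in hypoxia the surviving dimer binds RCGTG motifs, the core of the hypoxia response element, near genes of glucose uptake, glycolysis, angiogenesis and mitophagy. Many glycolytic genes are therefore themselves HIF targets, and the division of the genes used here is one of function, with enzymes and transporters of the pathway on one side and regulators and other targets on the other.

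The sequences below show where the HIF core motif lies upstream of members of both groups. Promoter sequence was taken from RefSeq on GRCm38.p6 and matched 34 of the 35 genes by symbol, with 48 starts between them. The motif was sought as ACGTG or GCGTG on both strands, and the palindrome CACGTG, which holds ACGTG on each strand, was counted as 1 site. Each line gives the 250 bases before a start, 5′ to 3′ on the strand of the gene, with the motif in capitals, so that CACGT and CACGC mark sites on the opposite strand. *Ldha*, *Pgam1*, *P4ha1* and *P4ha2* are the 4 members with at least 3 sites in a stretch free of Gencode exons, *Pgk1* is shown as a gene with ACGTG only, and *Adm* as a weakly transcribed HIF target. The *Ldha* and *P4ha2* stretches lie in introns of the longer Gencode gene models, and the other 4 lie upstream of theirs.

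Ldha, chr7:46845554-46845803, plus strand: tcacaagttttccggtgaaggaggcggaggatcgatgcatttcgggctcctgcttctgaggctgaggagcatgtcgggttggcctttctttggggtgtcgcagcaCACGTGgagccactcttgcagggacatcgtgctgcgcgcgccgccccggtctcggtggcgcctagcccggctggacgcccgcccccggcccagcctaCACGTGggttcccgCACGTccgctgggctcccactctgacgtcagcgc
Pgam1, chr19:41911621-41911870, plus strand: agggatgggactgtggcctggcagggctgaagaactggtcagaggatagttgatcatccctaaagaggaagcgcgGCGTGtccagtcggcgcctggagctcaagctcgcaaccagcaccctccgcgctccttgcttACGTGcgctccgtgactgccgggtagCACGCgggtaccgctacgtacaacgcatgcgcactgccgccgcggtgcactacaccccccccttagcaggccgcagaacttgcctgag
Pgk1, chrX:106186850-106187099, plus strand: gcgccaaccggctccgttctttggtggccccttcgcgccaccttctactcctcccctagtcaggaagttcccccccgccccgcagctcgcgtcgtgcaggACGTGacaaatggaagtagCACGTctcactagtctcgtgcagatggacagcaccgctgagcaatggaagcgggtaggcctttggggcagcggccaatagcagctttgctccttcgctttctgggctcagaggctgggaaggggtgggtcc
P4ha1, chr10:59323046-59323295, plus strand: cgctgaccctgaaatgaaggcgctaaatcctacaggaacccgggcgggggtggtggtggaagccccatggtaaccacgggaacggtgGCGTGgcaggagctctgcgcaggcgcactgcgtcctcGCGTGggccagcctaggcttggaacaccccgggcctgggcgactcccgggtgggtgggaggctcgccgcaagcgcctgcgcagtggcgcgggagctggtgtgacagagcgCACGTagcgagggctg
P4ha2, chr11:54100674-54100923, plus strand: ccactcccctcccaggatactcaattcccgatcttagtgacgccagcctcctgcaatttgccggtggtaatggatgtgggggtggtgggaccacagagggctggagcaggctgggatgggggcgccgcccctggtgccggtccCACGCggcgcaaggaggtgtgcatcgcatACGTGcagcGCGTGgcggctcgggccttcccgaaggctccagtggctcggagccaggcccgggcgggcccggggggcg
Adm, chr7:110627407-110627656, plus strand: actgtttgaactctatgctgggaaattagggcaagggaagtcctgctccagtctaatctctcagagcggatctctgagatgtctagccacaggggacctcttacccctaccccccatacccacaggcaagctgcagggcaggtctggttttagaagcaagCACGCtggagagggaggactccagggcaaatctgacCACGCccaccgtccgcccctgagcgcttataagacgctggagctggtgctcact

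The *Ldha* stretch held 2 palindromes, at 144 and 47 bases before the start, and a further site at 34 bases. In *Pgk1* the ACGTG sites lay 150 and 131 bases before the start. The *P4ha1* sites were spread from 163 to 16 bases before the start, and those of *P4ha2* were clustered between 107 and 69 bases. Both sites of *Adm* were of the GCGTG form, at 90 and 54 bases.

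Sites were counted from 250 bases before to 50 bases after a start, and a gene with several starts was given its highest count. On this count, 31 of the 34 genes (91.2%) had at least 1 site, compared with 53.3% of the 16810 genes of the table that had a promoter sequence. Among the 6628 such genes with a level of at least 1000 the share was 71.3%. Genes with more starts have more chances of a site. Per start, 39 of the 48 starts of the members (81.25%) had a site, compared with 64.6% of the 8574 starts of genes with a level of at least 1000. All 15 HIF targets and regulators had a site at 1 or more starts, as did 16 of the 19 glycolytic genes, and the genes with none were *Eno2*, *Gpi1* and *Tpi1*. For *Vegfa* the sites lay at a start inside the gene, where 218 of the 250 bases before it were annotated as exon. The upstream *Vegfa* start had none. The most upstream starts of *Hk1*, *Pkm* and *Aldoa* also had none, and their sites lay at starts further downstream. For *Hk1* this was a start where 186 of the 250 bases before it were annotated as exon. The *Hk1* sites at 15 and 12 bases before that start overlap. With ACGTG alone, 24 genes (70.6%) had a site, against 31.3% of genes with a level of at least 1000. The share with ACGTG and that with at least 4 sites were not counted per start. At least 4 sites were found for 6 genes, *Hk1* and *Ldha* with 5 each and *Pfkp*, *P4ha2*, *Bnip3* and *Ankrd37* with 4 each, a share of 17.6% compared with 7.27% of genes with a level of at least 1000. The median number of CpG dinucleotides in the 300 bases was 20 for the members and 22 for genes with a level of at least 1000, but 7 for all promoters. These counts are letters in a reference sequence, and no binding was measured.

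*Ankrd37*, an ankyrin repeat gene induced by hypoxia, had 4 sites and a level of 93.8, whereas *Tpi1*, triose phosphate isomerase, had none and a level of 3077. The *Ankrd37* sites at 155 and 152 bases before the start overlap. The other genes with at least 4 sites had levels from 591 for *P4ha2* to 20786 for *Pfkp*, and a relation of sites to level was not tested. *Car9*, the hypoxia-induced carbonic anhydrase, had a single ACGTG site 18 bases before its start and the lowest level of the 35 genes, 17.7.

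Glycolytic genes were among the most heavily transcribed genes of these cells. Before division by length, the median level of the 20 was 8254, and their median percentile among the 20157 genes with reads was 90.1, with 16 above the 75th percentile and 6 above the 95th. The median of the 15 HIF targets and regulators was 1851, at a median percentile of 68.3, with 5 above the 75th and 0 above the 90th. All genes with reads had a median of 421 and an upper quartile of 2900. Together the 35 genes made up 0.434% of the summed levels, and 0.174% of the genes with reads. Of the 35 genes, 29 had a level of at least 1000, and 3, *Ankrd37*, *Adm* and *Car9*, were below 100. For comparison, the levels of *Egln3* (1094) and *Ankrd37* (93.8) were at percentiles 60.7 and 37.4 of genes with reads.

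**Figure D1:**
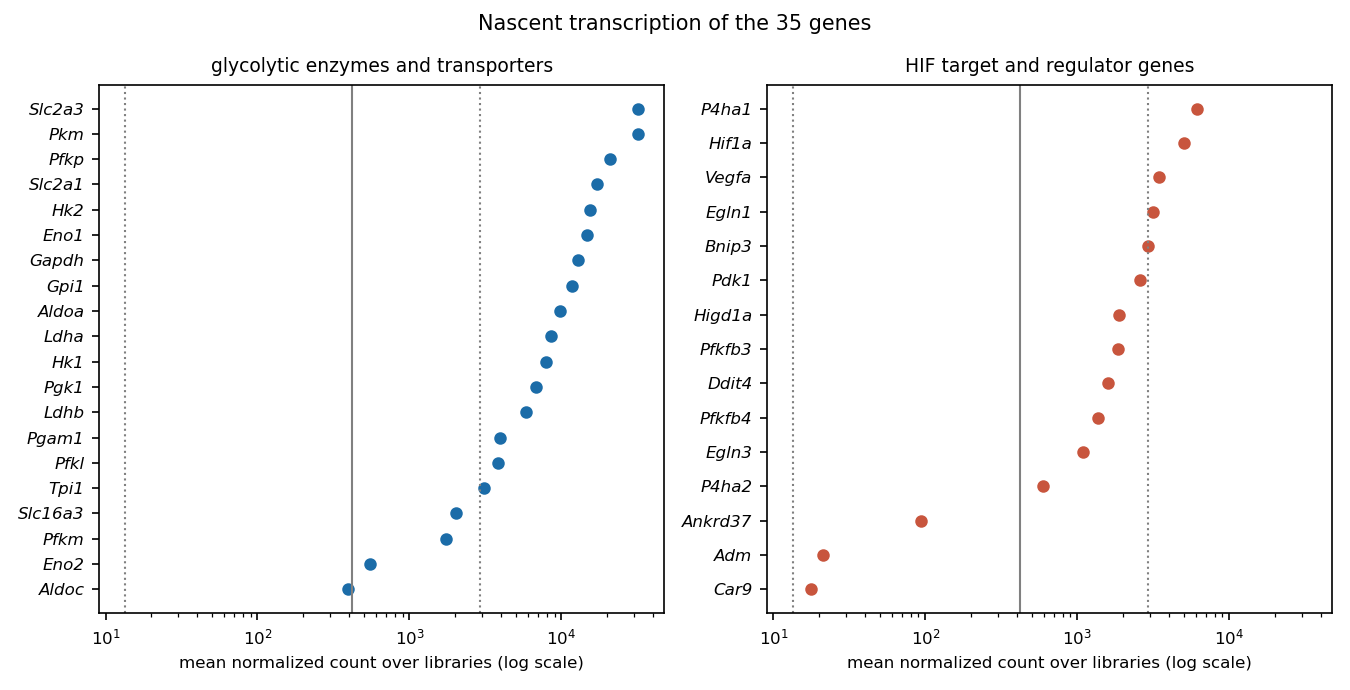
The authors' mean normalized count (log axis) of the 20 glycolytic genes (left) and the 15 HIF target and regulator genes (right), 1 point per gene. The solid line is the median of all genes with reads, 421, and the dotted lines are their quartiles, 13.4 and 2900, and 8 glycolytic genes but 0 HIF genes lie above 10000.

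Because the level of a gene can depend on its length, the levels of different genes were then compared per length. The level per kb of gene span, from Gencode vM21 on GRCm38, had a median of 407 for the glycolytic genes and 76.9 for the HIF genes, a ratio of 5.29, compared with 21.7 for all genes. Per kb of summed exons the medians were 2272 and 411, a ratio of 5.53, with 120.5 for all genes. Across 15428 genes with a level of at least 10, both lengths were fitted together. The log10 level rose by 0.994 for each unit of log10 exon length and by 0.0942 for each unit of log10 span. Level thus followed exon length nearly in proportion and span only slightly, so values per kb of span place genes with short spans higher. Whether introns were counted is not stated in the sources used here. Ratios between genes are therefore given on both scales.

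The groups overlapped on every scale. Per kb of span, *Ddit4* was the only HIF gene above the glycolytic median, at 732, and by level or per kb of exons none was. The glycolytic genes below the HIF median numbered 3 on each scale. Per kb of span the highest glycolytic gene was 61.9 times the lowest, and among the HIF genes the factor was 280. Per kb of exons the factors were 54.4 and 195. The factors of the HIF genes rest on *Car9*, the lowest on both scales, whose level was near those of fibroblast markers. The quartiles per kb of span were 164.5 and 662 for glycolytic genes and 20.6 and 140 for HIF genes. Per kb of exons they were 840 and 3188 for glycolytic genes and 170 and 864 for HIF genes. Genes are not replicates of a group, and these medians carry no test.

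**Figure D2:**
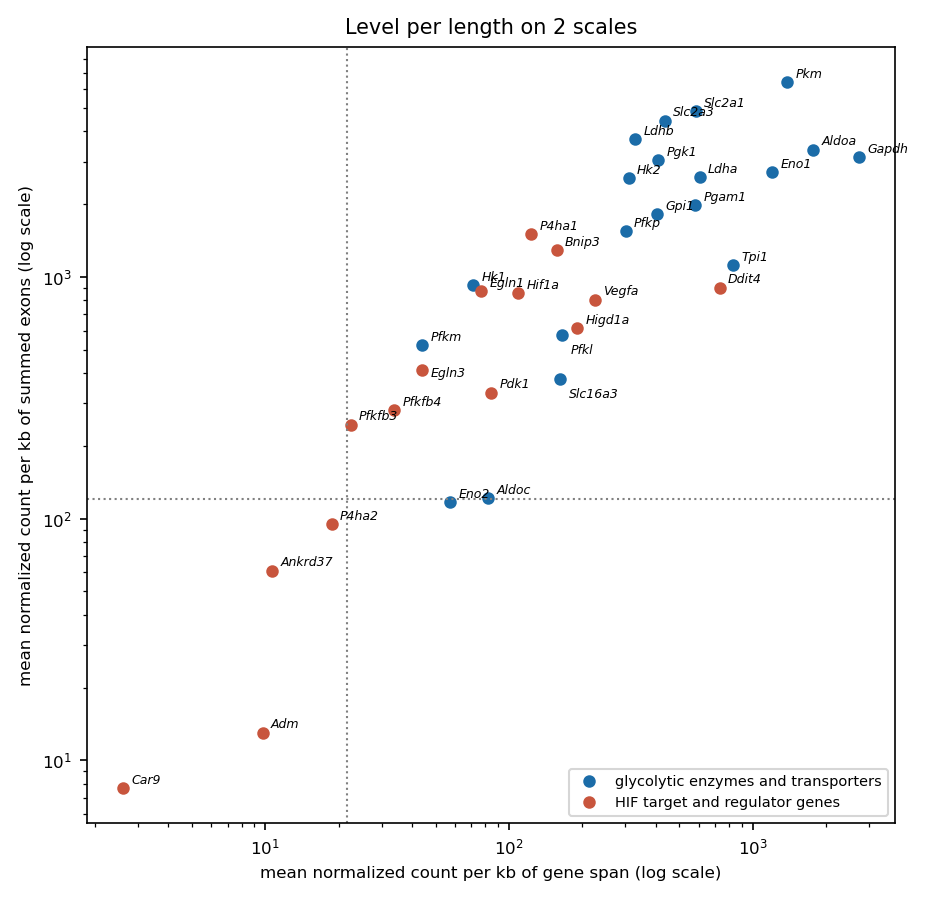
Mean normalized count per kb of gene span (horizontal, log axis) against per kb of summed exons (vertical, log axis) for the 35 genes, 1 point per gene, with dotted lines at the medians of all genes, 21.7 and 120.5. Glycolytic genes have medians of 407 and 2272 and HIF genes of 76.9 and 411, and *Car9*, *Adm*, *Ankrd37* and *P4ha2* lie below both lines.

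Glucose enters the cell through facilitative transporters, and those of ES cells were transcribed at high levels. *Slc2a3* (ENSMUSG00000003153, GLUT3, a high-affinity transporter) had the highest level of all 35 genes before division by length, 32099, and *Slc2a1* (ENSMUSG00000028645, GLUT1, the widely expressed transporter) had 17060. The *Slc2a3* gene spans 73.8 kb at chr6:122727809-122801640, whereas *Slc2a1* spans 29.3 kb at chr4:119108711-119137983. Per length the order was turned, with *Slc2a1* at 1.34 times *Slc2a3* per kb of span and 1.10 times per kb of exons. *Slc2a1* held 55.3% of the family per kb of span and 52.0% per kb of exons, and of the other transporters examined *Slc2a4* held 3.41% and 0.623% and *Slc2a2* less.

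The early regulated steps each had a leading isozyme. *Hk2* (ENSMUSG00000000628), the insulin-regulated hexokinase that binds mitochondria, had a level of 15305, and *Hk1*, the housekeeping hexokinase, 7922. *Hk2* made up 79.8% of the hexokinase family per kb of span and 72.0% per kb of exons, while *Hk3* and *Hkdc1* were each below 1% on both scales. Of the phosphofructokinases, which carry out the main regulated step of the pathway, the platelet-type gene *Pfkp* stood at 20786, the liver-type *Pfkl* at 3824 and the muscle-type *Pfkm* at 1752. *Pfkp* held 59.0% of the family per kb of span and 58.6% per kb of exons. *Pfkl* exceeded *Pfkm* by 3.76 times per kb of span but by 1.09 times per kb of exons. *Gpi1*, the isomerase between these steps, had a level of 11711.

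From aldolase to pyruvate kinase, 1 gene accounted for more than 90% of each family on both scales. *Aldoa* (ENSMUSG00000030695) exceeded *Aldoc*, the brain-type aldolase, by 21.6 times per kb of span and 27.8 times per kb of exons. *Eno1* (ENSMUSG00000063524, the ubiquitous enolase, level 14638) exceeded *Eno2*, the neuronal enolase (552.3), by 21.0 and 23.2 times. *Pkm* (ENSMUSG00000032294), which encodes the muscle-type pyruvate kinases by alternative splicing, had a level of 31926, with 99.7% of its family per kb of span and 99.8% per kb of exons. *Gapdh*, *Pgk1* and *Pgam1*, for the dehydrogenase, kinase and mutase between aldolase and enolase, had levels of 12934, 6806 and 3922 and over 95% of their families. Gene-level counts do not separate the splice forms of *Pkm*.

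**Figure D3:**
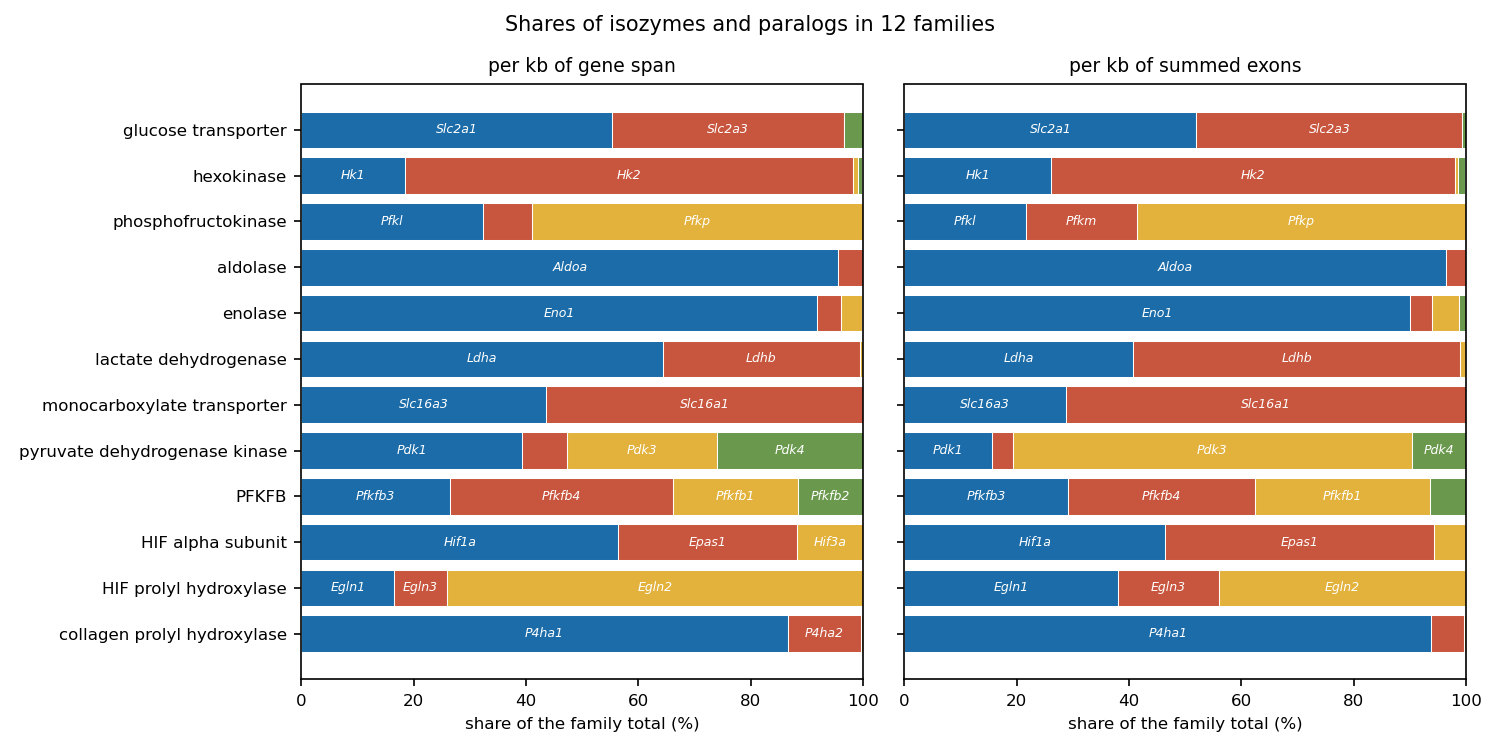
Share of each gene in the summed level of its family (horizontal axis, percent, from 0 to 100), per kb of gene span (left) and per kb of summed exons (right), for 12 families with segments of at least 9% named. *Aldoa*, *Eno1*, *Hk2* and *P4ha1* hold most of their families on both scales, whereas *Ldha* falls from 64.4% to 40.7% and *Pdk1* from 39.2% to 15.5% between the scales.

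The end of the pathway was shared between paralogs. *Ldha* (ENSMUSG00000063229), whose subunit favours lactate production, had a level of 8587, and *Ldhb*, whose subunit favours the reverse reaction, had 5844. *Ldha* exceeded *Ldhb* by 1.84 times per kb of span but was 0.697 times *Ldhb* per kb of exons, so their order depended on the length used. *Slc16a3* (MCT4, a lactate exporter induced by HIF) had a level of 2011, and *Slc16a1* (MCT1), outside the set of 35, had 4151. *Slc16a1* was ahead of *Slc16a3* by 1.29 times per kb of span and 2.48 times per kb of exons.

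When paralogs were summed for each of 13 steps, the enzyme steps differed by 7.03 times per kb of span and 5.72 times per kb of exons. Per kb of span, the highest was glyceraldehyde phosphate dehydrogenase at 2726, followed by aldolase at 1856, and the lowest enzyme step was hexokinase at 388. Per kb of exons, pyruvate kinase led the enzymes at 6398, with lactate dehydrogenase next at 6379, and triose phosphate isomerase was lowest at 1118. The order of the steps was thus not the same on the 2 scales. Glucose transport, at 9355, exceeded every enzyme step per kb of exons but not per kb of span. Before division by length it also led, at 49363 compared with 31972 for pyruvate kinase, the highest enzyme step.

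Reads that align to more than 1 place were dropped by the authors, and several glycolytic genes have many processed pseudogenes. Of the 50-base windows of its exons, 83.5% of those of *Pgam1* were found again elsewhere in the genome on either strand. The share was 68.3% for *Pgk1*, 45.2% for *Bnip3*, 26.8% for *Ldhb* and 24.6% for *Gapdh*. In all, 9 genes exceeded 10%, 8 of them glycolytic, and the median of the 35 genes was 0.281%. Over the whole span the share was lower, at 22.9% for *Pgam1* and 8.59% for *Pgk1*. The levels of these genes are therefore uncertain, and the size of any loss was not tested, since read lengths and the reads themselves were not used here.

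**Figure D4:**
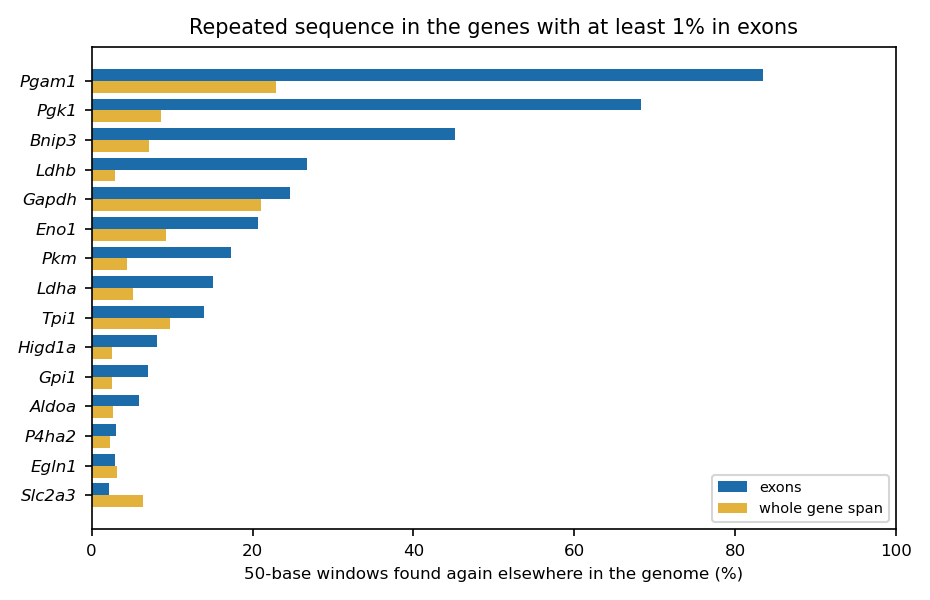
Percentage of 50-base windows found again elsewhere in the genome (horizontal axis), for exons and for the whole gene span, in the 35-gene set's members with at least 1% in exons. *Pgam1*, *Pgk1* and *Bnip3* have 83.5%, 68.3% and 45.2% in exons, and 22.9%, 8.59% and 7.14% over the span.

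Without the 9 genes above 10%, an alternative chosen after the values were seen, the ratio of the glycolytic to the HIF median per kb of span was 3.86. A further limit is overlap, as 6 of the 35 genes share some bases with another annotated gene on the same strand, of which 1, *Hif1a* with *Gm49321*, is annotated as coding.

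The HIF regulators were transcribed in these cultures. *Hif1a* (ENSMUSG00000021109), the oxygen-labile HIF-1 alpha subunit, had a level of 5048, at percentile 83.2. *Epas1*, which encodes HIF-2 alpha, had 4922, and *Hif3a* had 708. *Hif1a* stood at 1.77 times *Epas1* per kb of span and 0.972 times per kb of exons, so neither led on both scales. *Arnt*, the stable beta subunit, had 11793, with 187.6 per kb of span and 1473 per kb of exons.

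Of the prolyl hydroxylases, *Egln1* (PHD2, regarded as the main oxygen sensor for HIF-1 alpha) had a level of 3133 and *Egln3* (PHD3, itself a HIF target) 1094. *Egln1* exceeded *Egln3* by 1.75 times per kb of span and 2.12 times per kb of exons. *Egln2* (PHD1), outside the set, had 2816 on a gene of 8.15 kb, and it held 74.1% of the family per kb of span and 44.0% per kb of exons. *Hif1an*, the asparagine hydroxylase that restrains HIF activity, had 2995, and *Vhl* had 1592. Transcription of the alpha subunit gene says nothing of its protein, which is controlled by degradation.

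The kinases and hydroxylases among the HIF targets had levels from 591 for *P4ha2* to 6166 for *P4ha1*. *Pdk1* (ENSMUSG00000006494), a kinase that restrains entry of pyruvate into the mitochondrion, had a level of 2586. *Pdk3* had 3884, and it was ahead of *Pdk1* per kb of exons, where *Pdk1* was 0.219 times *Pdk3*, but behind it per kb of span, where *Pdk1* was 1.47 times *Pdk3*. *Pdk4*, at a level of 727, held 26.1% of this family per kb of span, close to the 26.7% of *Pdk3*, but 9.68% per kb of exons against 70.9%. *Pfkfb3* and *Pfkfb4*, which set the level of fructose-2,6-bisphosphate, the activator of phosphofructokinase, had levels of 1851 and 1366. Per length *Pfkfb4* was ahead, with *Pfkfb3* at 0.664 times *Pfkfb4* per kb of span and 0.874 times per kb of exons. *Pfkfb1* held 22.3% of the family per kb of span and 31.1% per kb of exons, and *Pfkfb2* held 11.5% and 6.43%. *P4ha1* (ENSMUSG00000019916), a collagen prolyl hydroxylase subunit, had the highest level of the 15 genes before division by length, and it exceeded *P4ha2* by 6.59 times per kb of span and 15.8 times per kb of exons.

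The remaining HIF targets spanned a wide range. *Vegfa*, the angiogenic growth factor, had a level of 3455, and *Bnip3*, a mitophagy receptor, 2929. *Higd1a*, a mitochondrial protein induced by hypoxia, had 1870, and *Ddit4*, the inhibitor of mTORC1 also known as REDD1, had 1586. *Ddit4* is a gene of only 2.17 kb at chr10:59949669-59951834, and its level per kb of span, 732, was at percentile 98.4 of all genes, while its level per kb of exons, 903, was at percentile 81.4. *Ankrd37* had 93.8, *Adm*, which encodes the vasodilator peptide adrenomedullin, had 21.1, and *Car9* had 17.7, at percentiles 37.4, 27.7 and 26.7. The levels of *Adm* and *Car9* were below those of the fibroblast markers *Col1a1* (25.3), *Thy1* (25.7) and *Pdgfra* (212) and above those of *Col1a2* (9.17) and *Postn* (0.119). They are therefore not taken as clear evidence of transcription. The level of *Ankrd37* was below those of *Pdgfra* and the primitive endoderm marker *Gata6* (98.96) but above the other fibroblast markers. It is read with the same caution. The lowest mean above 0 in the table was 0.0216, a value held by 102 genes.

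Promoter upstream transcripts (PROMPTs) are short antisense RNAs made divergently from within 1 kb of a promoter, and they were counted by the authors in a table of their own. That table was normalized on its own, so the size of a PROMPT level was compared only with other PROMPTs, and with gene levels only by order. Of the 35 genes, 28 had a row, 18 glycolytic and 10 HIF genes, and *Hk1*, *Aldoa*, *Pfkfb4*, *Hif1a*, *Adm*, *Ankrd37* and *Car9* had none by name. The median PROMPT level of the 28 was 5.96, compared with 0.815 for all PROMPTs with reads. Of the 25 with a gene level of at least 1000, the median was 7.30, and that of all 6465 such genes with a PROMPT with reads was 3.30.

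The highest PROMPT was that of *Slc2a1*, at 70.1 and percentile 97.8 of PROMPTs with reads. Those of *Egln1* (57.3), *Ddit4* (41.0), *Gapdh* (33.9) and *Vegfa* (27.0) followed. A PROMPT level of at least 10 was found for 11 of the 28 genes, 8 glycolytic and 3 HIF genes, compared with 15.96% of all PROMPTs with reads. All 11 were among the 25 genes with a gene level of at least 1000. Of all genes at that level with a PROMPT with reads, 29.3% had a PROMPT level of at least 10. *P4ha1*, whose level was the highest of the HIF genes, had one of the lowest PROMPTs, 0.259, and *Pkm*, at a gene level of 31926, had a PROMPT level of 2.69. *Slc2a3*, with a higher gene level than *Slc2a1*, had a PROMPT level of 12.6. The rank correlation of gene and PROMPT levels was 0.287 across the 28 genes and 0.409 across 13716 genes, a description across genes that share libraries and are not independent.

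**Figure D5:**
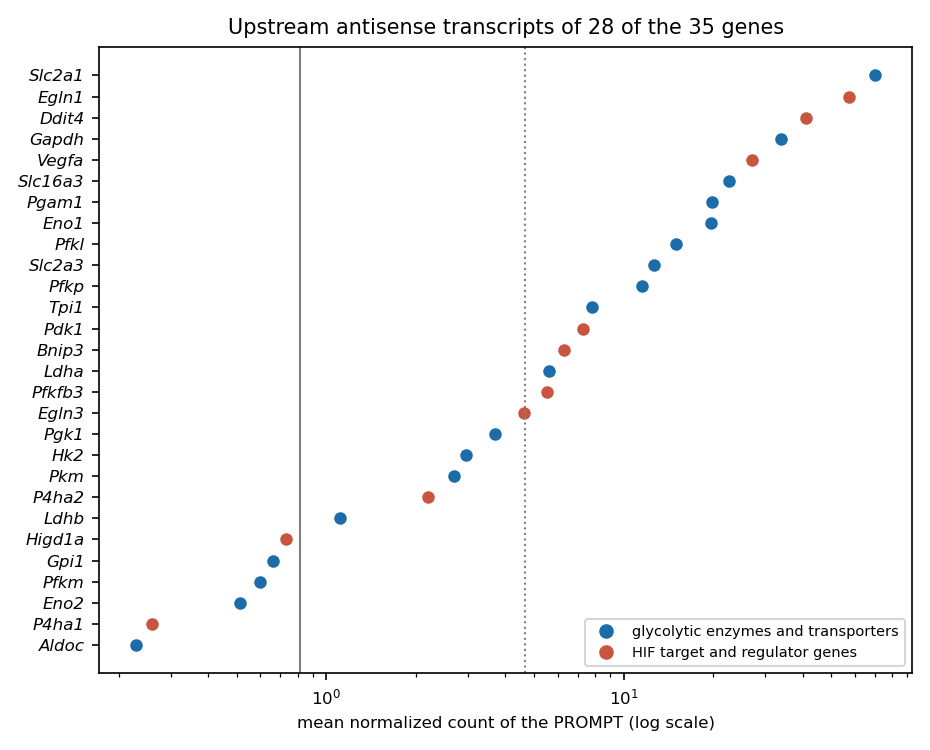
Mean normalized count of the upstream antisense transcript (horizontal, log axis) of the 28 genes that had one in the table, in the order of that level, 1 point per gene. The solid line is the median of all PROMPTs with reads, 0.815, and the dotted line their upper quartile, 4.67, and *Slc2a1* is highest at 70.1.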

How the data were processed

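TT-seq libraries of 18 samples in 6 groups were described by their labels. Per the study's methods and the submitters' processing notes, the authors trimmed reads, aligned them to mm10 with STAR keeping unique alignments, and counted them by strand with featureCounts on Gencode features (the notes also list HTSeq, deepTools and DESeq2, all with no version). The signal used here is the mean normalized count that the authors deposited, 1 value per feature, averaged over libraries after DESeq2 size factors, and which libraries entered it is not stated. The 4 tables also hold the authors' fold changes, standard errors and p-values, which were not used, and the tables of enhancer and distal transcripts were left out because their rows name no gene. The tables give neither counts nor a depth per library, so no interval or floor was given. The labels give 500 nM for 3-IAA, a unit that differs from that in the study's methods.

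Gene spans and exons came from Gencode vM21, which matched 21817 of 21859 rows. Percentiles are over genes with a mean above 0. Repeated sequence was sought with 50-base windows on GRCm38 chromosomes. Alternatives were length scales, filters at means of 1 and 10, group borders and motif forms. All 35 genes are named, with paralogs holding at least 10% of a family, *Slc16a1* and 6 HIF pathway genes (*Epas1*, *Hif3a*, *Arnt*, *Egln2*, *Hif1an*, *Vhl*). Some paralogs counted in the family totals are not reported here. Further paralogs and targets named were chosen after their values were seen. The genes and lists were chosen with earlier results of these data known. The functions for percentiles, motif sites and repeated windows were tested on simulated data, and the other steps were not. All steps ran under Python 3.11.15 with matplotlib 3.10.9, scipy 1.17.1, pandas 2.3.3 and numpy 2.4.6.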

Additional observations from a re-analysis of the deposited data

How the results depend on the processing

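The median percentile of the glycolytic genes was 90.9 over all rows, 88.7 over genes with a mean of at least 1 and 87.1 over those with at least 10, and that of the HIF genes was 70.8, 63.9 and 58.6. Per kb of exons in place of span, the median percentiles were 94.6 and 67.01. The ratio of the glycolytic to the HIF median was 5.53 per kb of exons, 4.46 without division by length, 4.35 with *Pfkfb3* and *Pfkfb4* counted as glycolytic, 6.89 without *Hif1a*, *Egln1* and *Egln3*, and 3.86 without the 9 genes with over 10% of exon windows repeated, an alternative chosen after seeing the data. The glycolytic median was the higher under each of these. Of 16 families, 13 had the same leading gene per kb of exons and 12 without division by length. Members with a motif numbered 24 with ACGTG alone. The leading gene changed for *Slc2a1* (34.6% without division by length), *Ldha* (40.7% per kb of exons), *Pdk1* (15.5% per kb of exons, 34.7% without division), *Pfkfb4* (29.3% without division), *Hif1a* (46.5% per kb of exons) and *Egln2* (40.0% without division). Each gene has 1 PROMPT row, so the sum and the highest row were the same, 5.96. No paired analysis was possible because the tables give 1 mean per feature and no value per library, and no replicate could be left out. The tables give no counts per library, so counting error could not be set beside any level.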

Other observations

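Most paralogs outside the 35 genes were weakly transcribed, and 11 of 20 other isozymes and transporters had a level below 100. A level of 93.8, that of *Ankrd37*, was at percentile 37.4 of genes with reads, and the median percentile of the 20 was 37.7. *Slc2a2*, a liver and beta cell glucose transporter, had 1.50, the testis-specific *Pgk2* had 0.332, and *Pklr*, the liver and red cell pyruvate kinase, had 46.2. *Slc16a1* (4151), *Pdk3* (3884) and *Pfkfb1* (1051) were the only ones of the 20 with a level of at least 1000.

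Of 8 other HIF targets sought by name, 6 had a level of at least 1000. A level of 1051, that of *Pfkfb1*, was at percentile 60.1 of genes with reads, and the median percentile of the 8 was 78.6. *Kdm3a*, a histone H3K9 demethylase, had 10228, *Mxi1*, an antagonist of MYC, 7540, and *Vegfc*, a lymphangiogenic growth factor, 6945. Per kb of span these were at percentiles 89.6, 74.7 and 62.95 of all genes, and per kb of exons at 87.04, 84.96 and 96.6. *Bnip3l*, the paralog of *Bnip3* in mitophagy, had 3784, against 2929 for *Bnip3*, with 160.1 and 156.8 per kb of span and 980.6 and 1293 per kb of exons. *Car12*, a paralog of *Car9*, had 110.8. *Pgam2*, the muscle-type mutase, had a gene level of 51.9, at percentile 33.4 of genes with reads. Its PROMPT level was 92.0, at percentile 98.5 of PROMPTs with reads and above that of any of the 28 genes of the set with a PROMPT row. Overlap with genes on the opposite strand was not examined.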
